A study of Homo sapiens with 4 samples.

Results

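Solute carriers are membrane proteins that move sugars, amino acids, ions, metals, nucleotides and metabolites across cellular membranes. Here they were taken as all genes named SLC, a family number, A and a member number, without pseudogene transcripts. The rule found 957 transcripts of 217 genes among 75165 listed transcripts of 20298 gene identifiers. Of these, 42 genes with 195 transcripts belonged to SLC25, the mitochondrial carrier family, and 175 genes with 762 transcripts to the other families, most of which act in the plasma membrane or in membranes of the secretory pathway and lysosomes. The rule used gene names and transcript types and no measured value. It leaves out transporters whose subfamily letter is not A, such as SLC35B1, and the SLCO genes.

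The RNA came from MDA-MB-231, an established triple negative breast cancer cell line, in which 3x flag-YTHDC1 had been introduced with a lentivirus and the cells kept in puromycin. YTHDC1 is the nuclear reader of N6-methyladenosine in RNA. All 4 libraries were from these overexpressing cells, 2 from RNA recovered with an anti-flag antibody (IP) and 2 from the input, which the labels name total RNA and the protocol takes from the nuclear lysate after UV crosslinking. Cells without the vector and the IgG control were not analysed here.

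The measurement used is the mean normalized count, a single value per transcript that the authors averaged over the IP and input libraries together. It has no replicate values and no error, the depth of the libraries is unknown, and IP and input cannot be told apart in it. The values below are therefore descriptions without a test, and none of them is a statement about binding by YTHDC1. In such pooled RNA, more copies of a transcript and better recovery of it in the IP cannot be told apart either. Because the values are not divided by transcript length, levels of different genes are given side by side and not ranked, and a share within a gene is a share of assigned reads and not of molecules.

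The label of the cell line was checked against its markers. All 5 mesenchymal or basal genes were listed, with gene totals (mean normalized counts summed over the gene's transcripts) from 7624 for CAV1 to 80785 for VIM. The hormone receptor genes ESR1 and PGR were not listed, and CDH1 and EPCAM had totals of 10.0 and 78.3, whereas the luminal genes KRT8, KRT18, ERBB2 and GATA3 had 31132, 27123, 4303 and 584. Of the leukocyte genes, CD3E was not listed, PTPRC had a total of 3.81 and CD14 of 138. YTHDC1 itself had a total of 55488.

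The solute carrier genes differed in which of their isoforms held the reads. In SLC25A4, SLC25A12, SLC25A17, SLC25A24, SLC25A26 and SLC25A32, transcripts annotated for nonsense-mediated decay (NMD, the pathway that degrades RNAs with a premature stop codon) held from 79.9% to 90.3% of the gene total, and the protein-coding transcripts from 6.89% to 20.1%. In the other 30 SLC25 genes with a total of at least 100, the NMD share was at most 29.7%. SLC2A1, the glucose carrier GLUT1, divided its reads between a protein-coding, an NMD and a retained-intron transcript. SLC7A5, the large neutral amino acid carrier LAT1, had nearly all of its reads on a single protein-coding transcript.

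**Figure D1:**
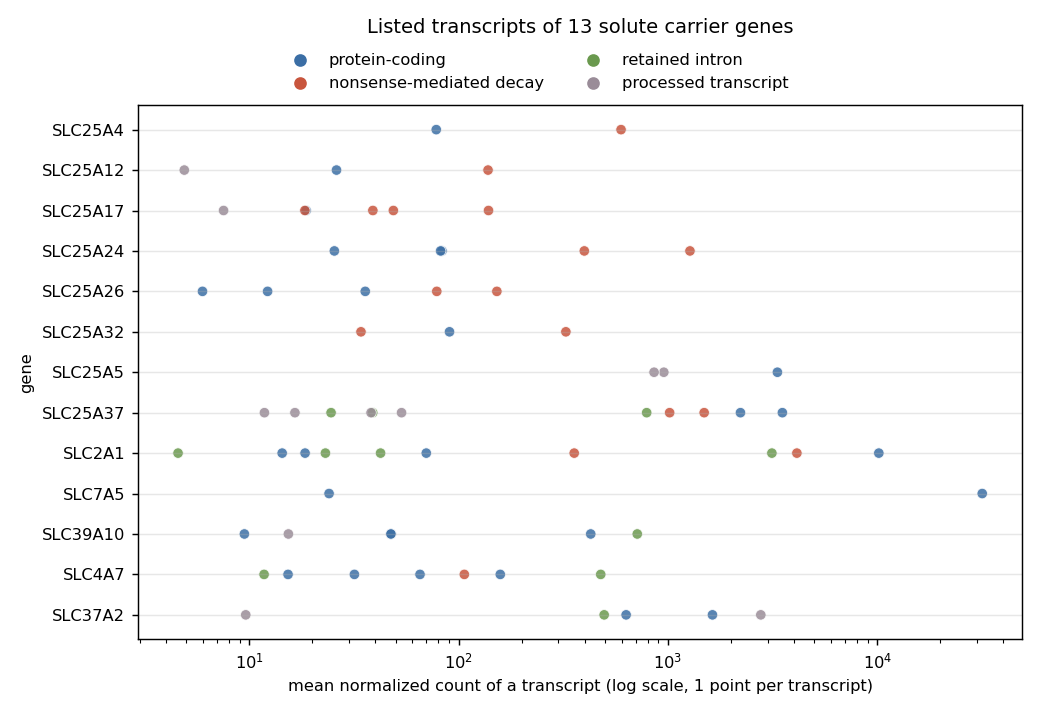
Mean normalized count of each listed transcript (x axis, log scale, pooled over IP and input by the authors) of 13 solute carrier genes (y axis), with 1 point per transcript, coloured by annotated type. In SLC25A4 the NMD transcript stood at 597 and the protein-coding transcript at 78.2, whereas in SLC7A5 the leading protein-coding transcript stood at 31674.

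The SLC25 carriers are made of repeated pairs of membrane-spanning helices. Most are proteins of the inner mitochondrial membrane and exchange a metabolite of the matrix for one of the cytosol. The SLC25 genes are nuclear, so their RNAs are spliced in the nucleus and exported. RefSeq (GRCh38.p14) holds 48 protein-coding genes with SLC25 names that fit the rule, and 42 of them (87.5%) were listed. The 6 that were not listed were SLC25A2, SLC25A18, SLC25A31, SLC25A47, SLC25A48 and SLC25A52. Of the 299 RefSeq genes of the other families, 174 (58.2%) were listed under the same symbol, and of all 20056 protein-coding RefSeq genes 66.9% were. SLC22A18 was listed while RefSeq gives it the newer symbol SLC67A1. Further genes may be listed under names that predate their SLC symbol. These were not counted, so the listed shares may be too low by an unknown amount. The authors removed transcripts that did not reach 5 reads in 50% of the samples, so a gene that was not listed may be present below that minimum.

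**Figure D2:**
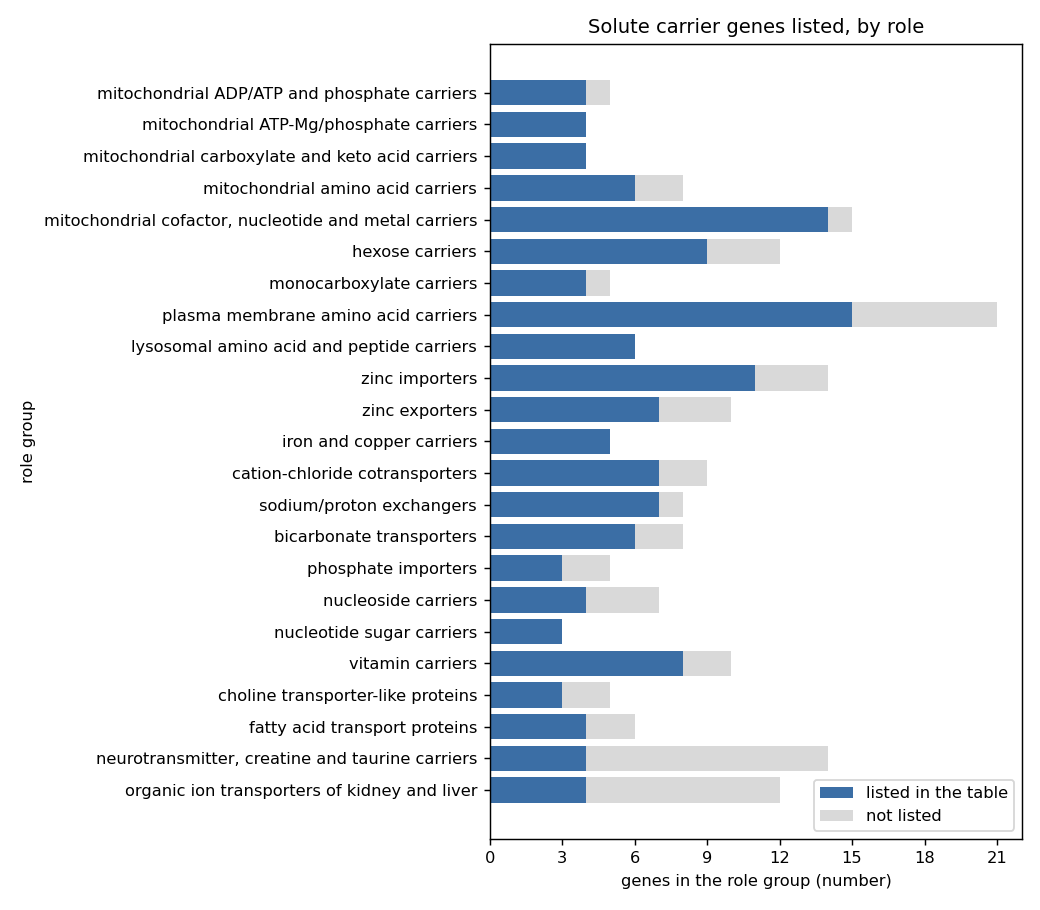
Number of genes (x axis) in each of 23 role groups (y axis) that had at least 1 listed transcript (blue) or none (grey). The groups are chosen lists and do not hold every gene of a role. Of the genes chosen, all 6 lysosomal carriers had a listed transcript. The same held for 4 of 14 neurotransmitter, creatine and taurine carriers and 4 of 12 organic ion transporters of kidney and liver. Of all 20056 protein-coding RefSeq genes, 66.9% were listed.

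The ADP/ATP carriers export ATP from the matrix and SLC25A3 imports the phosphate for its synthesis. Of the 5 genes, 4 were listed, and SLC25A31 was not. SLC25A3 had a total of 6644 over 12 transcripts, and SLC25A3-217, SLC25A3-212 and SLC25A3-206, all protein-coding, held 41.6%, 23.8% and 22.1% of it. SLC25A5 had 3 transcripts, the protein-coding SLC25A5-201 with 3331 (64.8% of the total) and 2 processed transcripts with 955 and 858. SLC25A6 was listed under 2 gene identifiers of the same sequence, with equal values for each of its 3 transcripts, so that SLC25A6-201 appeared with 3322 under both, and these values are a division of shared reads. Its total of 6747 is the sum over both, and the 195 SLC25 transcripts count its transcripts under both.

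SLC25A4 (ENSG00000151729.11; chromosome 4, 185143266 to 185150382 in GRCh38.p14) differed from these genes in its isoforms. Its total of 675 was made of SLC25A4-202, annotated for NMD, with 597 (88.4%) and the protein-coding SLC25A4-201 with 78.2 (11.6%). The 3 genes encode closely related proteins, and whether reads were exchanged between them was not tested.

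The ATP-Mg/phosphate carriers, which exchange adenine nucleotides for phosphate, were all 4 listed. SLC25A23 and SLC25A25 had totals of 1112 and 1482, of which 96.1% and 99.0% were protein-coding. An antisense RNA of SLC25A25 was listed with 615. The strand setting of the counting is not given in the sources used here, so reads of a gene and of its antisense RNA cannot be told apart, for this gene and for those below. In SLC25A24 (ENSG00000085491.17; chromosome 1, 108134043 to 108200343), 89.8% of a total of 1863 lay on 2 NMD transcripts, SLC25A24-201 with 1273 and SLC25A24-205 with 398. Its 3 protein-coding transcripts stood at 83.3, 82.0 and 25.5, all below the lower of the NMD transcripts. SLC25A41 had a single listed transcript, annotated for NMD, at 3.56.

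Carriers of carboxylates and keto acids link the citric acid cycle to the cytosol. SLC25A1, the citrate carrier, SLC25A10, the dicarboxylate carrier, and SLC25A11, the oxoglutarate carrier, had totals of 1542, 1301 and 1326, with 94.8%, 94.9% and 95.7% in protein-coding transcripts. SLC25A21, the oxodicarboxylate carrier, had 6.04, against 42.2 for its antisense RNA. The first 3 genes were thus mostly protein-coding, like SLC25A3.

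Of a list of 8 mitochondrial amino acid carriers, 6 were listed, with totals from 169 for SLC25A12 to 1604 for SLC25A22. SLC25A12 and SLC25A13 both encode aspartate/glutamate carriers of the malate-aspartate shuttle. SLC25A12 (ENSG00000115840.14; chromosome 2, 171783405 to 171894244) had 138 on SLC25A12-201, an NMD transcript, which was 81.7% of the gene total, and 26.1 on a protein-coding one. SLC25A13 had 57.2% of a total of 535 on SLC25A13-201, a protein-coding transcript, and 20.6% on NMD transcripts. Of the glutamate carrier SLC25A22, 94.8% of the total was protein-coding, with SLC25A22-201 at 750 and SLC25A22-228 at 634. SLC25A38, the glycine carrier needed for heme synthesis, had 88.7% of a total of 763 on SLC25A38-209. SLC25A44, which carries branched-chain amino acids, had 68.7% of 1185 in protein-coding transcripts. SLC25A29, a carrier of basic amino acids that was not on the list, had 97.7% of a total of 2286 in protein-coding transcripts.

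Carriers of cofactors, nucleotides and metals formed the longest of the SLC25 lists, with 14 of 15 genes listed. SLC25A37, mitoferrin-1, which imports iron, had a total of 9218, of which 62.2% was protein-coding and 27.2% in NMD transcripts. Its protein-coding transcripts SLC25A37-206 and SLC25A37-212 stood at 3518 and 2219, its NMD transcripts SLC25A37-201 and SLC25A37-202 at 1489 and 1018, and its retained-intron transcript SLC25A37-207 at 791. The related SLC25A28, mitoferrin-2, had 89.6% of a total of 1247 in protein-coding transcripts and none in NMD transcripts. SLC25A39, a glutathione carrier, had 84.0% of 2398 in protein-coding and 16.0% in retained-intron transcripts, whereas the related SLC25A40 had a total of 49.8, with 52.2% in NMD transcripts.

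In 3 further genes of this list the NMD transcripts led. SLC25A26, which imports S-adenosylmethionine, the donor of methyl groups, had 152 on SLC25A26-204 and 78.7 on SLC25A26-205, together 81.0% of its total of 285. SLC25A32, a carrier of folate and flavin, had 325 on SLC25A32-205, which was 72.3% of the total, and 90.5 on its protein-coding transcript. SLC25A17 encodes a carrier of the peroxisome and not of the mitochondrion. NMD transcripts held 90.3% of its total of 271, with 139 on SLC25A17-212, and its protein-coding transcript stood at 18.7.

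By number of transcripts, 35 of the 195 SLC25 transcripts (17.9%) were annotated for NMD, against 62 of 762 (8.14%) in the other families and 9.86% of the 65841 transcripts of protein-coding genes. Protein-coding transcripts made up 50.8%, 63.6% and 59.6% of these sets. Retained-intron transcripts differed less, with 15.9%, 15.4% and 17.2%. By summed mean normalized counts, the NMD share was 12.1% in SLC25, 4.97% in the other families and 4.22% in all protein-coding genes. Of the summed NMD counts of SLC25, 6345, SLC25A37 held 2507 and SLC25A24 held 1672, and without these genes the share was 5.23%. Without SLC2A1 and SLC6A6, which held most in the other families, the share there was 2.62%. Transcripts of a gene share reads and exons and are not independent, and no test was run on these shares.

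Among genes with a total of at least 100, an NMD transcript was listed in 20 of 36 SLC25 genes (55.6%), in 38 of 123 other genes (30.9%) and in 34.2% of the 11042 protein-coding genes of that size. NMD transcripts held more than 50% of the total in 6 of 36 (16.7%), in 5 of 123 (4.07%) and in 3.92%. The mean NMD share per gene was 18.8%, 7.65% and 6.82%. The median was 1.07% in SLC25 and 0 in both other sets, so the SLC25 mean rested on few genes. Among the 15 SLC25 genes with a total of at least 1000 the mean was 8.43%, against 4.95% in 48 other genes. Of these 15 genes, SLC25A24 had 89.8%, SLC25A37 had 27.2% and no other had more than 4.56%. The SLC25 mean at this minimum thus rested mainly on SLC25A24, and a mean without it was not taken. The minimum of 100 fell between SLC38A4, with 98.1, and SLC4A3, with 100.6.

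**Figure D3:**
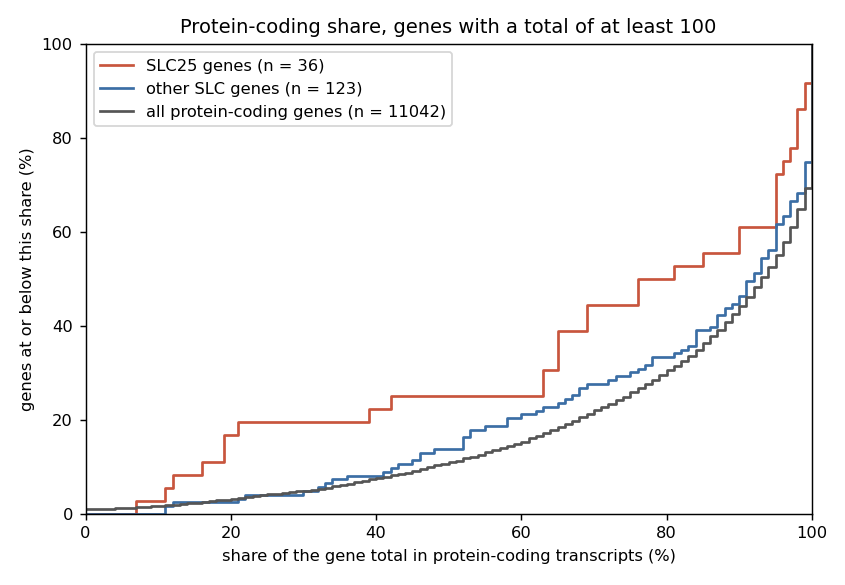
Cumulative percent of genes (y axis) at or below a given share of the gene total in protein-coding transcripts (x axis, %), for genes with a total of at least 100. At a protein-coding share of 25%, the curve held 19.4% of 36 SLC25 genes, 4.07% of 123 other SLC genes and 4.15% of 11042 protein-coding genes.

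The most abundant transcript was not of the protein-coding type in 9 of the 36 SLC25 genes (25.0%) and in 19 of the 123 others (15.4%). The same held for 11.3% of all protein-coding genes with a total of at least 100. In SLC25 it was an NMD transcript in 6 genes, a processed transcript (a spliced RNA without an annotated reading frame) in SLC25A36 and SLC25A53, and a retained-intron transcript in SLC25A45. In the other families it was an NMD transcript in 9 genes, a processed transcript in 7 and a retained-intron transcript in 3. The leading types of all protein-coding genes were not counted one by one, so these counts by type have no value to be set against.

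**Figure D4:**
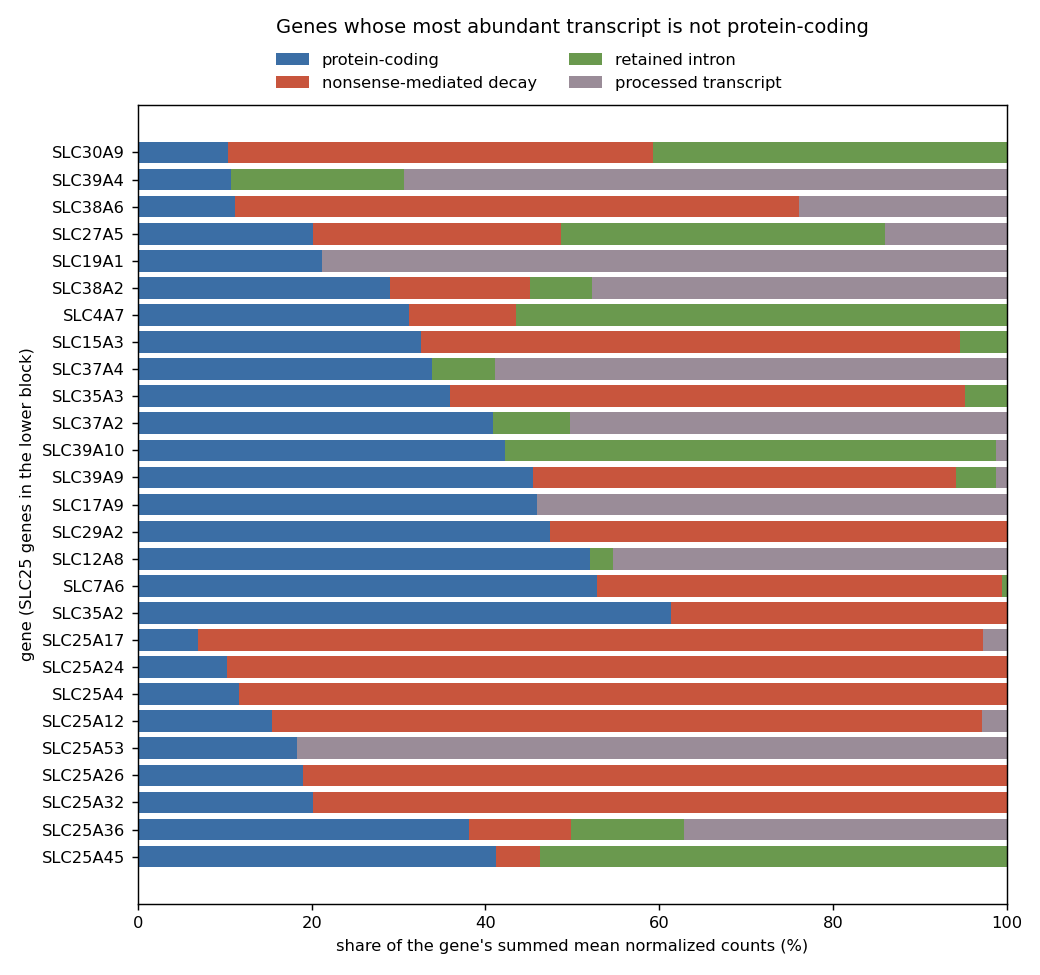
Share of the gene's summed mean normalized counts (x axis, %) by transcript type, for 27 of the 28 solute carrier genes (y axis) with a total of at least 100 whose most abundant transcript is not protein-coding. The 9 SLC25 genes are in the lower block, where SLC25A17, with a protein-coding share of 6.89%, is uppermost.

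With all listed transcripts counted, the median number of listed transcripts per gene was 4 in SLC25, in the other families and in all 14050 protein-coding genes. The most abundant transcript held a median of 67.2% of the gene total in SLC25, 66.3% in the others and 66.7% in all protein-coding genes. With transcripts of at least 100 alone, the medians were 1 transcript and 100% in SLC25, and 2 transcripts and 86.8% in the others. A single transcript was listed in 6 SLC25 genes (14.3%) and 32 other genes (18.3%). The genes themselves differed in length, with a median span in RefSeq of 26.8 kb for SLC25, 39.6 kb for the 174 other genes found there and 30.4 kb for 13423 protein-coding genes.

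Of 12 genes chosen as hexose carriers, 9 were listed, while 66.9% of all protein-coding RefSeq genes were. The related SLC2A9, SLC2A11 and SLC2A14, with totals of 10.4, 157 and 27.2, were not on this list. Like it, the lists below are chosen, so counts of their listed genes are not shares of whole classes. SLC2A1 (ENSG00000117394.23; chromosome 1, 42925353 to 42958868) had 10 transcripts and a total of 17947. The protein-coding SLC2A1-203 stood at 10157, the NMD transcript SLC2A1-208 at 4126 and the retained-intron transcript SLC2A1-202 at 3134. These held 56.6%, 23.0% and 17.5% of the total, so that protein-coding transcripts made up only 57.2%. An antisense RNA of SLC2A1 was listed with 34.8. SLC2A3, the carrier GLUT3, had 72.5% of a total of 562 in protein-coding transcripts and 21.9% in retained-intron transcripts, and its processed pseudogene SLC2A3P1 was listed with 51.8. SLC2A5, the fructose carrier, had 4.71. SLC2A2 and SLC2A4, the carriers of liver and of insulin-responsive tissue, and SLC5A1 were not listed.

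Of the monocarboxylate carriers, which move lactate and pyruvate, SLC16A3 (MCT4) had 13 transcripts and a total of 15706. Its protein-coding transcripts held 94.3% of this, with 7241 on SLC16A3-222 and 2529 on SLC16A3-214. SLC16A1 (MCT1) had 16.6 over 2 transcripts and SLC16A7 had 199 over 4. The antisense RNA of SLC16A1 stood at 19.1.

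Of 21 plasma membrane amino acid carriers, 15 were listed. SLC7A5 (ENSG00000103257.9; chromosome 16, 87830023 to 87869507) had 31674 on SLC7A5-201 and 24.1 on its other transcript. A transcribed pseudogene of it, SLC7A5P2, was listed with 1784, and reads can be shared between such copies. SLC3A2, the heavy chain CD98 that pairs with LAT1, had 16 transcripts, the most of any solute carrier gene listed, and a total of 8773. SLC3A2-201 and SLC3A2-203 held 54.8% and 26.2% of it, and 98.2% was protein-coding. SLC1A5, the glutamine carrier ASCT2, had all 4 transcripts of the protein-coding type and 9194 of a total of 10646 on SLC1A5-203. SLC7A1, a carrier of cationic amino acids, had 6777 of 6968 on SLC7A1-201, and SLC7A11, the cystine/glutamate exchanger, had 1003 on its only listed transcript.

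The neutral amino acid carriers SLC38A1 and SLC38A2 differed in their isoforms. SLC38A1 had 84.8% of a total of 4686 on the protein-coding SLC38A1-201. In SLC38A2 the processed transcript SLC38A2-210 led with 774, followed by the protein-coding SLC38A2-201 with 539, the NMD transcript SLC38A2-208 with 298 and a retained-intron transcript with 132. SLC7A6, a further light chain of CD98, had 360 on an NMD transcript and 186 on each of 2 protein-coding ones, out of 1053. SLC7A7 had a single processed transcript at 7.34. SLC38A6, of the same family as SLC38A2, had 65.0% of a total of 191 in NMD transcripts and 21.3 on its protein-coding transcript. SLC1A2, SLC3A1, SLC6A14, SLC7A8, SLC38A3 and SLC38A5 were not listed.

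All 6 genes chosen as lysosomal carriers of amino acids and peptides were listed. SLC38A7 and SLC36A1 had totals of 892 and 657, with 90.6% and 100% in protein-coding transcripts. SLC38A9, a lysosomal sensor of arginine, had a total of 91.1, with a retained-intron transcript at 44.6 and its 3 protein-coding transcripts between 4.18 and 7.76. SLC15A3 had 62.0% of a total of 310 on the NMD transcript SLC15A3-207.

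Most SLC39 proteins move zinc into the cytosol, and most SLC30 proteins move it out. Of 14 SLC39 genes chosen as importers, 11 were listed, and of 10 SLC30 genes chosen as exporters, 7. SLC39A7, a zinc carrier of the endoplasmic reticulum, had 99.9% of a total of 11682 in protein-coding transcripts. SLC39A10 (ENSG00000196950.14; chromosome 2, 195613029 to 195737700) had 713 on the retained-intron transcript SLC39A10-209 and 428 on the protein-coding SLC39A10-201. SLC39A9 had 983 on an NMD transcript, 47.1% of its total, and SLC39A4 had 69.4% of a total of 279 in processed transcripts. SLC39A11 had a total of 238, all protein-coding. SLC30A1, the exporter of the plasma membrane, had 3115 on its single transcript. SLC30A9 had 240 on an NMD transcript, 164 on a retained-intron transcript and 50.7 on its protein-coding transcript. SLC30A10 had a single processed transcript at 69.1.

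Iron and copper carriers were all 5 listed. SLC11A2 (DMT1), which moves ferrous iron, had 71.1% of a total of 371 in protein-coding transcripts and 27.5% in NMD transcripts. SLC40A1, the iron exporter ferroportin, had 28.6, and SLC31A1, the copper importer, had 857 on 1 transcript. SLC11A1, a carrier of phagocytes, had 14.8.

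Among carriers of ions, SLC4A2, an anion exchanger, had 11287 of a total of 15450.2 on SLC4A2-202, and 93.9% of the total was protein-coding. In SLC4A7, a sodium bicarbonate cotransporter (ENSG00000033867.16; chromosome 3, 27372723 to 27484384), the retained-intron transcript SLC4A7-204 stood at 477 and the leading protein-coding transcript at 158. SLC4A5 had 28.9. SLC9A3, a sodium/proton exchanger, had 176, against 1255 for its antisense RNA, listed with 8 transcripts. SLC9A7, an exchanger of the Golgi, had 904 on SLC9A7-205 and 518 on SLC9A7-201, both protein-coding, and SLC9A9 had 8.42. SLC12A2, the cotransporter NKCC1, had 93.9% of 927 in protein-coding transcripts. SLC12A8 had 52.0% of 256 in protein-coding transcripts and 45.3% on a processed transcript. SLC12A4, with 14 listed transcripts, had 1265 on SLC12A4-201 out of 2407, and SLC12A5 had 25.6. The kidney cotransporters SLC12A1 and SLC12A3 were not listed. Of the phosphate importers, SLC20A1 had 6373 of 8173 on SLC20A1-201, SLC34A3 had 65.2, and SLC34A1 and SLC34A2 were not listed.

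Of the 7 nucleoside carriers, the 4 equilibrative ones (SLC29) were listed and the 3 concentrative ones (SLC28) were not. SLC29A1 had 14 transcripts and a total of 1345, with 74.8% in protein-coding and 25.2% in retained-intron transcripts. SLC29A2 had 52.6% of a total of 375 in NMD transcripts, and SLC29A4 had 73.1. The nucleotide sugar carriers of the Golgi, SLC35A2 and SLC35A3, had an NMD transcript in the lead, with 276 of 712 and 133 of 295. Protein-coding transcripts together held 61.3% of the total in SLC35A2 and 35.9% in SLC35A3. The CMP-sialic acid carrier SLC35A1 had 30.5.

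Among the vitamin carriers, 8 of 10 were listed. SLC19A1, the reduced folate carrier, had 265 of 349 on the processed transcript SLC19A1-208 and 43.4 on the protein-coding SLC19A1-201. SLC46A1, the proton-coupled folate carrier, had 98.2% of 1224 in protein-coding transcripts. SLC52A2, a riboflavin carrier, had 96.1% of 3219, and SLC19A3, a thiamine carrier, had 4.24.

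The choline transporter-like SLC44A2 had 86.0% of 4033 in protein-coding transcripts, while SLC44A5 had 20.2, and SLC44A3 and SLC44A4 were not listed. The fatty acid transport protein SLC27A4 had 2849 of 3464 on SLC27A4-201, while in SLC27A5 the retained-intron transcript SLC27A5-202 led with 89.4 of 240. SLC27A3 had 169.

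Of 14 carriers of neurotransmitters, creatine and taurine, 4 were listed. SLC6A6, the taurine carrier, had 1465 on the protein-coding SLC6A6-210, but its 3 leading NMD transcripts stood at 1064, 563 and 348, and NMD transcripts held 50.1% of its total of 3950.4. SLC6A8, the creatine carrier, had 198, and SLC6A9, a glycine carrier, had 571. SLC6A3, the dopamine carrier, had 9.02, and all 7 vesicular carriers of the list were not listed. Of 12 organic ion transporters of kidney and liver, SLC22A3, SLC22A4, SLC22A5 and SLC47A1 were listed, with totals of 247, 160, 329 and 33.3.

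Outside these lists, SLC37A2 and SLC37A4, sugar phosphate exchangers, and SLC17A9, a vesicular nucleotide carrier, had a processed transcript in the lead. In SLC37A2 this was SLC37A2-202 with 2774 of a total of 5541, and the protein-coding SLC37A2-203 and SLC37A2-201 stood at 1631 and 631. SLC37A4 had 58.9% of 1049 and SLC17A9 had 54.1% of 3324 in processed transcripts. SLC37A3, with 14 listed transcripts, had 380 of 783 on the protein-coding SLC37A3-201.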

How the data were processed

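RNA from MDA-MB-231 carrying 3x flag-YTHDC1 was sequenced after rRNA depletion with a stranded kit, in 2 IP and 2 input libraries. Per the labels and the paper's methods, the authors mapped reads with STAR (version 2.7.2b) to a GENCODE v33 transcriptome, estimated reads per transcript with RSEM (version 1.2.31), removed transcripts short of 5 reads in 50% of samples, and applied RUVSeq and DESeq2. The strand setting of the counting is not given in the sources used here. The authors deposited 1 table, and the signal value used from it is the mean normalized count, which the authors made by scaling each library's RSEM counts and averaging over all 4 libraries before they deposited the table. Its log2 fold changes, their standard errors and p-values are the authors' own comparison and were not used, so no comparison of IP with input is made. Values of single libraries were not analysed here, so depth and replicate spread are unknown.

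Gene totals are sums over listed transcripts, and types are those of the table. The identifiers of all 217 genes, without version or copy suffix, were found in a table of gene names, and spans are from RefSeq GRCh38.p14. No transcript or protein lengths were used, so the planned level per kb of coding length, and the naming of genes by it, were not done. Named instead were genes of 23 role lists, genes with a total of at least 100 and no protein-coding leading transcript, and genes with most transcripts. Other genes and values were chosen after they were seen, as were the summaries by NMD share. Results of some genes are not reported here. Members and lists were chosen with earlier results of these data known. Alternatives were minimum counts of 10 and 100, protein-coding transcripts alone, the leading transcript alone and shares of summed counts. The scripts ran under python 3.11.15 with pandas 2.3.3 and numpy 2.4.6, figures were drawn with matplotlib 3.10.9, and the calculations were tested on simulated data.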

Additional observations from a re-analysis of the deposited data

How the results depend on the processing

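No value has a replicate error, and no library could be left out, since the table gives 1 value over all libraries. No paired analysis was possible because the results come from no test and the column carries no replicate number. Division by coding length was not run. A value was taken to have moved when it left the 95% Wilson interval of a share or changed by more than 1.5 times. That interval treats transcripts as independent, which they are not, so it served only as a mark. It was built on numbers of transcripts, an unlike measure to shares of summed counts. The median gene total was 418 in SLC25, 328 in the other families and 588 in all protein-coding genes. With protein-coding transcripts alone it moved to 242 in SLC25 and was 246 in the others. With the leading transcript alone it moved to 274 in SLC25 and to 174 in the others. With transcripts of at least 100 it was 597 in SLC25 and moved to 647 in the others. The order of the 2 medians was thus reversed with protein-coding transcripts alone and with transcripts of at least 100. With transcripts of at least 10, 67.7% of the other families' transcripts were protein-coding and 12.9% retained-intron. With at least 100, protein-coding, retained-intron and processed transcripts made up 67.7%, 7.69% and 9.23% in SLC25 and 76.5%, 7.41% and 6.996% in the other families, while the NMD share was 15.4% and 9.05%. As shares of summed counts, protein-coding, NMD, retained-intron and processed transcripts held 78.3%, 12.1%, 3.55% and 6.10% in SLC25 and 86.5%, 4.97%, 4.52% and 3.98% in the others. The NMD share was higher in SLC25 under each of these settings. The median number of transcripts per gene moved from 4 to 1 (SLC25) and 2 (others) with transcripts of at least 100, and to 2 in both with protein-coding transcripts alone. Genes with a leading transcript that is not protein-coding numbered 8 in SLC25 with either minimum, and 19 and 17 in the others; with protein-coding transcripts alone this count has no value. The mean NMD share of genes was also taken in settings chosen after the data were seen. It was 19.3% (35 SLC25 genes) and 8.11% (116 others) with genes of at least 2 transcripts. With genes of at least 1000 it fell to 8.43% (15 SLC25 genes) and 4.95% (48 others). Of these 15, SLC25A24 had 89.8% and SLC25A37 had 27.2%, and no other had more than the 4.56% of SLC25A10. Without the 2 genes of each family with the largest NMD sums, also chosen after the data were seen, NMD transcripts held 5.23% of summed counts in SLC25 and 2.62% in the others.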

Other observations

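Transporter genes with names outside the rule were also listed. Among them were 20 SLC35 genes with a subfamily letter from B to G, with totals from 21.3 for SLC35G5 to 4462 for SLC35E2B. Of the 25 RefSeq genes with such names, 18 were listed under the same symbol, and SLC35D3, SLC35D4, SLC35F1, SLC35F4, SLC35G3, SLC35G4 and SLC35G6 were not. The most abundant transcript was protein-coding in all 20 except SLC35E3 and SLC35G1, where it was an NMD transcript. Their protein-coding shares were 23.7% of 487 and 29.8% of 86.8. Of all protein-coding genes with a total of at least 100, a minimum that SLC35G1 did not reach, 11.3% had a leading transcript of another type. SLC35B2, which carries the sulfate donor PAPS into the Golgi, had 93.8% of a total of 2470 in protein-coding transcripts, and SLC35C1, the GDP-fucose carrier, had 100% of 1191.

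Of the 6 SLCO genes listed, which encode organic anion transporting polypeptides, SLCO4A1 had a total of 1035 with 41.9% in protein-coding transcripts, and SLCO3A1 had 672 with 68.6%. The hepatic SLCO1B1 had 3.49.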
